A study of Manis javanica with 3 samples.

Results

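Toll-like receptors and the RIG-I-like helicases recognise microbial molecules and start innate immune signalling. Toll-like receptors at the cell surface bind components of microbial walls and flagella, and those in endosomes bind nucleic acids. The helicases DDX58 (RIG-I) and IFIH1 (MDA5) bind viral RNA in the cytosol and signal through the mitochondrial adaptor MAVS. The sensors described here were the gene models that carried 1 of 10 symbols (TLR2, TLR3, TLR4, TLR5, TLR6, TLR7, TLR8, TLR9, DDX58 and IFIH1) in their Swiss-Prot annotation, and 16 of the 24220 genes measured did so. By FPKM, a level corrected for gene length and library size, the highest sensors in the liver were the helicases DHX58 and DDX58 and then TLR2. In the salivary glands they were TLR4 and then TLR2, and in the library labelled small intestine DDX58. That library had high gastric gland markers and no read of the enterocyte genes FABP2 and LCT, so small intestine is used here only as its name. The models named TLR8, TLR13 and CD180 by the NR protein database had no read in the small intestine, 1 to 3 reads in the salivary glands and 29 to 53 in the liver.

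Libraries were sequenced from mRNA that the authors selected with poly-T beads from total RNA. They covered 3 tissues of the Malayan pangolin (Manis javanica), namely liver, salivary glands and small intestine, with 1 library each. All 3 tissues came from 1 adult female, a wild animal that had died during rescue, was dissected straight after death and carried ants in its stomach. No treatment separated the groups, so the comparison is between tissues, and no value below has a replicate check: the 95% intervals cover counting error only. The libraries held 10158924 counts (small intestine), 8318686 counts (salivary glands) and 14568778 counts (liver). In bulk tissue, fewer cells of a type and less RNA per cell cannot be told apart.

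The tissue labels were compared with marker genes. The 6 hepatocyte markers summed to 20555 CPM (counts scaled to a common library size, here with TMM) in the liver, 197 in the small intestine library and 37.3 in that of the salivary glands. In the library labelled small intestine, the enterocyte genes FABP2 and LCT had no read and sucrase-isomaltase (SI, gene7608) had 2 reads. The 4 enterocyte markers found of 7 (not ALPI, APOA4 and CDX2) were carried by VIL1. They summed to 71.9, 76.6 and 66.0 CPM in the small intestine, salivary glands and liver. In the small intestine library 7 gastric gland markers summed to 17659 CPM, against 15.5 in the salivary glands and 0 in the liver. These markers thus did not bear out the label. The label small intestine is kept below only as the name of that library, and its values are not read as levels of intestinal tissue. The comparison of liver with salivary glands does not use it. Of the 7 salivary gland markers, 3 were found (not PRR4, STATH, MUC7 and SMR3A), and they summed to 89.1, 499 and 321 CPM in the small intestine, salivary glands and liver. BPIFA1 had no read in any library, so AQP5 and BHLHA15 carried these sums. The salivary label thus had weaker marker support than that of the liver.

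A symbol in this annotation often stood for a relative of the gene. The rule found 6 of the 10 symbols, as 4 models for TLR2, 1 for TLR3, 3 for TLR4, 1 for TLR6, 3 for TLR9 and 4 for DDX58, while TLR5, TLR7, TLR8 and IFIH1 were the symbol of no gene. The product names from NR matched the symbol in 6 of the 16 models and gave another product in 10. By product name 9 of the 10 sensors had a model, with TLR7 and TLR8 under the symbol TLR9 and IFIH1 under the symbol DDX58, and TLR5 had none by either name. Sharing of symbols was common in the whole annotation: 71.2% of the 15195 genes with a symbol shared it with another gene. Each model is therefore given below by its NR name and its number, and positions are those deposited with the expression values, on scaffolds whose build is not named in the sources used here.

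**Figure D1:**
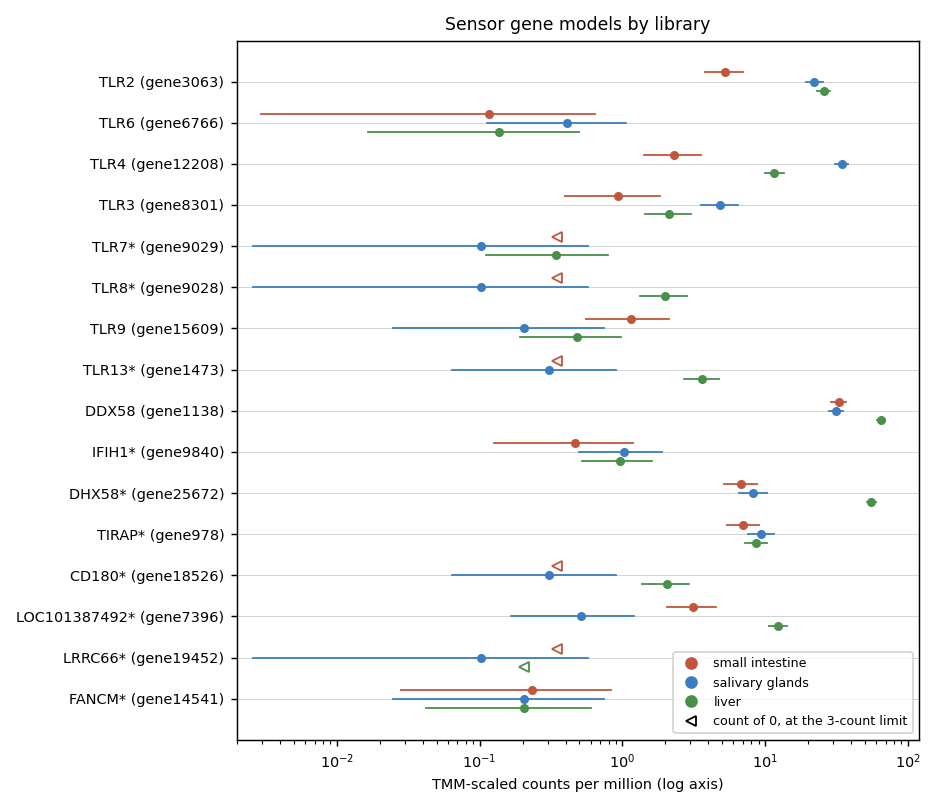
Level of each of the 16 sensor models in the 3 libraries, in TMM-scaled CPM, on a log axis. Points carry 95% Poisson intervals of the count (counting error only), open triangles stand at the 3-count limit of a library with no read, and an asterisk marks models whose symbol is that of another gene. The TLR4 point for the salivary glands lies above those of both other libraries, and the DHX58 point for the liver likewise.

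Among the surface receptors, TLR2 binds bacterial lipoproteins as a partner of TLR1 or TLR6. It was low in the small intestine library and several times higher in the other libraries. Its model (gene3063, NW_016528932.1, 318762 to 332165, plus strand) had 45 counts in the small intestine, 215 in the salivary glands and 376 in the liver, or 1.52, 6.49 and 8.90 FPKM. Scaled by TMM, which sets the bulk of genes equal between libraries, the liver level was 4.94-fold that of the small intestine (3.62 to 6.88) and the salivary level 4.25-fold (3.07 to 6.0). Liver and salivary glands were not separated by counting error, with a ratio of 1.16 (0.980 to 1.38). TLR6 (gene6766, NW_016531377.1, 162054 to 170402, minus strand), the TLR2 partner, had 1, 4 and 2 counts in the small intestine, salivary glands and liver, so that no order of the tissues was detectable at this depth.

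TLR4, the receptor for bacterial lipopolysaccharide, was highest in the salivary glands. The model (gene12208, NW_016535729.1, 14523 to 28261, plus strand) had 20 counts in the small intestine, 335 in the salivary glands and 170 in the liver, or 0.430, 7.73 and 3.40 FPKM. The salivary level was 14.9-fold that of the small intestine (9.49 to 24.7) and 2.97-fold that of the liver (2.46 to 3.59). The liver level was 5.02-fold that of the small intestine (3.15 to 8.43). TLR4 alone held 30.3% of all counts on the 16 models in the salivary library.

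Of the endosomal receptors, TLR3 was measured above 30 counts in both the salivary glands and the liver. TLR3 binds double-stranded RNA, and its model (gene8301, NW_016532544.1, 175008 to 196146, minus strand) had 8, 47 and 31 counts in the small intestine, salivary glands and liver, or 0.226, 1.25 and 0.697 FPKM. The salivary level was 5.23-fold that of the small intestine (2.45 to 12.8) and 2.28-fold that of the liver (1.42 to 3.72), and the liver level was 2.29-fold that of the small intestine (1.03 to 5.76). The order of the 3 tissues was thus the same as for TLR4.

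The models for TLR7 and TLR8, receptors for single-stranded RNA, lie next to each other, 19129 bases apart on NW_016533257.1, with no other model between them. The TLR8 model (gene9028, 34306 to 52965, minus strand) had no read in the small intestine, 1 in the salivary glands and 29 in the liver, where its level was 0.488 FPKM. Against the 3-count limit of the small intestine the liver level was at least 5.71-fold higher. That bound, like all given below as at least, takes the count of the higher library as exact. Against the single salivary read the ratio was 19.3 (3.19 to 787). The TLR7 model (gene9029, 72095 to 90102, minus strand) had 0, 1 and 5 counts, too few to rank the tissues. A model under the symbol TLR4 that NR named TLR13 (gene1473, NW_016528025.1, 80560 to 113266, minus strand), a receptor known in mice for bacterial ribosomal RNA, had 0, 3 and 53 counts, with 1.24 FPKM in the liver. Its liver level was at least 10.4-fold that of the small intestine and 11.7-fold that of the salivary glands (3.80 to 58.7).

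TLR9, which binds unmethylated CpG DNA, had another order than TLR2, TLR3 and TLR4, as its model (gene15609, NW_016539320.1, 363770 to 372692, plus strand) had the most reads in the small intestine. It had 10 counts there, 2 in the salivary glands and 7 in the liver, or 0.123, 0.019 and 0.042 FPKM, and did not reach a mean of 10 counts in any pair of libraries. The ratio of small intestine to salivary glands was 5.62 (1.20 to 52.8), and that of small intestine to liver was 2.42 (0.831 to 7.49), an interval that includes 1.

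Among the cytosolic RNA helicases, DDX58 and DHX58 had the highest FPKM of the models in the liver, and IFIH1 was low. DDX58 (gene1138, NW_016527871.1, 114630 to 166614, minus strand) had 283 counts in the small intestine, 304 in the salivary glands and 944 in the liver, or 5.28, 4.91 and 12.7 FPKM. Small intestine and salivary glands were not separated, with a salivary level 0.955-fold that of the small intestine (0.810 to 1.13), a direction that turned with total counts (log2 0.39). The liver level was 1.97-fold that of the small intestine (1.72 to 2.26) and 2.06-fold that of the salivary glands (1.81 to 2.35), so the point values lay on either side of 2-fold and exchanged sides when libraries were scaled by total counts (log2 1.22 and 0.83). The end of the DDX58 model overlaps ACO1 (gene1136, an iron-responsive aconitase on the plus strand) by 1353 bases, and the alignment was unstranded, so reads of the overlap cannot be assigned. ACO1 had 393, 461 and 2233 counts in the small intestine, salivary glands and liver, and its part in the DDX58 values was not tested.

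A second helicase, DHX58 (LGP2, which modulates the signals of the other helicases), was found under the symbol DDX58 and was more unequal between tissues. Its model (gene25672, NW_016578367.1, 139481 to 147431, plus strand) had 59, 80 and 811 counts in the small intestine, salivary glands and liver, or 2.27, 2.33 and 14.9 FPKM, the highest FPKM of any of the 16 models. The liver level was 8.12-fold that of the small intestine (6.23 to 10.8) and 6.73-fold that of the salivary glands (5.35 to 8.58), while small intestine and salivary glands were not separated, at 1.21 (0.851 to 1.72). IFIH1 (gene9840, NW_016533891.1, 3688 to 72232, minus strand), which binds long double-stranded RNA, was low in every tissue, with 4, 10 and 14 counts and at most 0.199 FPKM. Its liver and salivary levels were not separated, at 0.930 (0.384 to 2.34).

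The other 5 models that the symbols found were not sensors by their NR names. TIRAP (gene978, NW_016527754.1, 377774 to 389280, plus strand), the adaptor that brings MyD88 to TLR2 and TLR4, was found under the symbol TLR2 and was even across tissues, with 61, 91 and 127 counts and 2.55, 3.0 and 2.80 FPKM in the small intestine, salivary glands and liver. CD180 (gene18526, NW_016543423.1, 207983 to 222960, plus strand), a relative of TLR4 on B cells, was found under the symbol TLR4 and had 0, 3 and 30 counts, a liver level at least 5.91-fold that of the small intestine and 6.64-fold that of the salivary glands (2.07 to 34.0). An uncharacterised product, LOC101387492 (gene7396, NW_016531815.1, 154958 to 161606, minus strand, symbol TLR2), had 27, 5 and 180 counts. It was the only member with 10 or more counts on average that was 2-fold or more higher in the small intestine than in the salivary glands, by 6.07-fold (2.30 to 20.2). FANCM (gene14541, NW_016538067.1, 198087 to 214566, plus strand, symbol DDX58) had 2, 2 and 3 counts and LRRC66 (gene19452, NW_016545367.1, 9620 to 22503, plus strand, symbol TLR2) had 0, 1 and 0.

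**Figure D2:**
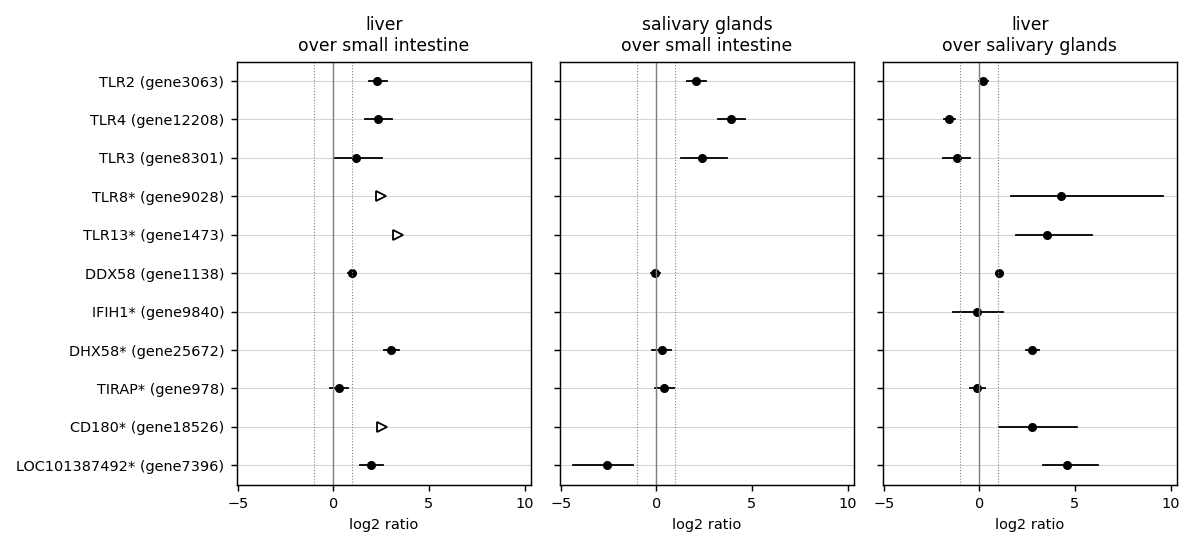
Log2 ratio of TMM-scaled counts between each pair of libraries for the sensor models with a mean of 10 or more counts over the pair. Lines are 95% counting intervals, dotted lines mark 2-fold and an asterisk marks models whose symbol is that of another gene. Open triangles are lower bounds against a count of 0, with the other count taken as exact. TLR4 and TLR3 lay above 2-fold in the salivary glands against both other libraries, and DHX58 in the liver against both.

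Over all 16 models, 5 had no read in the small intestine, 0 in the salivary glands and 1 in the liver. Of all 24220 genes, 4985, 5506 and 5013 had no read in these libraries. A count of 0 allows up to 0.295 CPM in the small intestine, 0.361 in the salivary glands and 0.206 in the liver (3 counts of the library total). An FPKM above 1 was reached by 4 models in the small intestine, 6 in the salivary glands and 7 in the liver, where 59.4%, 56.3% and 57.0% of all genes did so. The summed counts of the models were 520, 1104 and 2782, or 51.2, 132.7 and 191 CPM of the library total.

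With a minimum of 10 counts on average over a pair, 10 models could be compared between liver and small intestine. Of these, 8 were 2-fold or more higher in the liver, where 23.2% of all 16354 genes compared were, and 0 were that much higher in the small intestine, where 22.9% of all genes were. Since 4 of the 8 had under 10 counts in the small intestine and passed the minimum through the liver library, this count is a description of these models. Between salivary glands and small intestine, 3 of 7 models (TLR2, TLR3 and TLR4) were 2-fold or more higher in the salivary glands and 1 in the small intestine, against 15.9% and 18.9% of 15609 genes. Between liver and salivary glands, 6 of 11 were higher in the liver and 2 (TLR3 and TLR4) in the salivary glands, against 23.6% and 22% of 16229 genes. Here 4 of the 6 (TLR8, TLR13, CD180 and LOC101387492) had under 10 counts in the salivary glands and passed through the liver library, and 1 of the 3 models higher in the salivary glands than in the small intestine (TLR3) and the 1 lower (LOC101387492) likewise passed through the library where they were high.

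Immune cell markers also differed between the libraries. The 9 macrophage markers found of 12 summed to 110 CPM in the small intestine, 98.6 in the salivary glands and 1643 in the liver. Of their 10 models, 9 were 2-fold or more higher in the liver than in the small intestine and 1 lower, against 23.2% and 22.9% of all genes. Of the 9, 3 had under 10 counts in the small intestine. Among the markers nearly absent outside the liver, MARCO (gene23211), a scavenger receptor, had 0, 1 and 202 counts. CLEC4F (gene9267), a lectin of liver macrophages, had 0, 0 and 155. The 6 leukocyte markers summed to 34.0, 109.7 and 147 CPM, but LCP1 (gene1700) alone had 232, 992 and 762 counts, while PTPRC (gene21872, CD45) had 27, 20 and 678 and LAPTM5 (gene13380) had 26, 33 and 344, so that apart from LCP1 the liver stood highest. The 7 T and NK cell markers summed to 7.75, 7.82 and 43.2, with CD3D and CD8A at 0 in the small intestine and salivary glands, and the 6 B and plasma cell markers found of 8 summed to 2.08, 5.66 and 12.2, with MS4A1 at 0 in both. The sums of the neutrophil markers (7 of 8 found) ranged from 218 to 322 and were carried by LTF, S100A8 and S100A9. The neutrophil receptors differed more, with 4, 1 and 770 counts for CXCR2 (gene26487) and 0, 6 and 507 for CSF3R (gene12309) in the small intestine, salivary glands and liver, while ELANE had no read and MPO 1, in the liver. Dendritic cell markers (7 of 8 found) summed to between 14.8 and 28.3, with CLEC9A and XCR1 at 0 outside the liver. Most macrophage marker models, the T cell and neutrophil receptor genes and PTPRC were thus high in the liver together with the models of TLR8, TLR13 and CD180. Their part in those values was not tested. TLR4 and TLR3 were highest in the salivary glands, as was the leukocyte marker LCP1, although none of the 6 lists had its highest sum there. The part of immune cells in the TLR4 and TLR3 values was not tested.

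**Figure D3:**
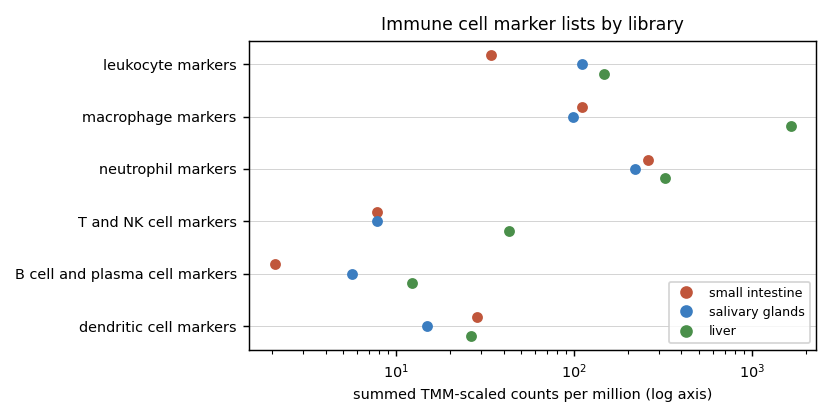
Summed level (TMM-scaled CPM) for 6 immune cell marker lists in the 3 libraries, on a log axis, 1 point per library. The macrophage sum was 1643 in the liver and 98.6 and 110 in the salivary glands and small intestine.

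Patterns most like those of the sensors were sought among the genes of the marker and pathway lists, by the largest difference over the 3 libraries between log2 levels centred for each gene, with 0.5 CPM added to each level. DHX58 was nearest to the leukocyte lysosomal protein LAPTM5 (gene13380), with a largest difference of 0.09. DDX58 was nearest to IRF5 (gene14625), an interferon regulatory factor, with 0.10, and TIRAP to the kinase RIPK1 (gene5741), with 0.08. The nearest list genes lay farther from TLR2 (BHLHA15, gene1462, at 0.36) and from TLR4 (an LBP-like model, gene4747, at 0.74). The LBP-like model had 2 counts in the small intestine, so the added 0.5 CPM shaped that distance. It also did so for the sensor models with under 10 counts in any library, and for these no nearest gene is given. Over 3 libraries such likeness is weak, as 180 of the 16410 genes compared were as near to TIRAP and 13 to DHX58.

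Further Toll-like receptors outside the rule had salivary maxima. TLR10 (gene6764), a relative of TLR1 and TLR6 whose model lies 14585 bases from that of TLR6 with no model between, had 30, 62 and 18 counts in the small intestine, salivary glands and liver, or 2.08, 4.28 and 0.885 FPKM. A model that NR named TLR1 (gene26484, NW_016598523.1, 7 to 1114, plus strand), a TLR2 partner, had 39, 96 and 38 counts. It is 1108 bases long and lies at the start of its scaffold. The salivary level of TLR10 was 5.19-fold that of the liver (3.03 to 9.32) and that of the TLR1 model 3.80-fold (2.59 to 5.69). Against the small intestine the salivary levels were 1.84-fold (1.17 to 2.94), under the 2-fold threshold, for TLR10 and 2.19-fold (1.49 to 3.26) for the TLR1 model. These receptors are close in sequence, and the counting of reads shared among them is not given in the sources used here.

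Co-receptors of TLR4 did not share one order of tissues. CD14, which hands lipopolysaccharide to TLR4, had 185, 482 and 2504 counts in the small intestine, salivary glands and liver, a liver level 8.0-fold that of the small intestine (6.88 to 9.33) and 3.45-fold that of the salivary glands (3.13 to 3.81). LBP (gene4746), a plasma carrier of lipopolysaccharide made by hepatocytes, had 3309, 10141 and 97359 counts. LY96 (MD-2), which TLR4 needs to bind lipopolysaccharide, had 2, 16 and 6 counts, and its salivary level was 4.02-fold that of the liver (1.49 to 12.5), while its 2 and 6 counts in the other libraries could not be ranked. CD36, a scavenger receptor that works with TLR2, had 13, 18 and 175 counts. Of the other models with the symbol LBP, gene4747 had 2, 46 and 10 counts, and gene10304, a BPI fold-containing protein by NR, had 0, 220 and 0, a salivary level at least 110-fold that of the liver. By symbol, 3 of 3 co-receptor models compared were 2-fold or more higher in the liver than in the small intestine (23.2% of all genes were), and of 6 compared with the salivary glands 3 were higher in the liver and 3 lower (23.6% and 22% of all genes), 2 of the lower ones with under 10 counts in the liver.

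The adaptors also differed in their order of tissues. MYD88, the adaptor of most Toll-like receptors, had 660, 987 and 2718 counts in the small intestine, salivary glands and liver, with a liver level 2.43-fold that of the small intestine (2.23 to 2.65). TICAM1 (TRIF), the adaptor of TLR3, had 191, 57 and 226 counts, so that it was lowest in the salivary glands, where TLR3 was highest. Its salivary level was 3.77-fold below that of the small intestine (2.79 to 5.16). TICAM2 (TRAM), whose model NR named a TMED7-like protein, had 78, 41 and 185 counts, and SARM1, a negative regulator, had 89, 81 and 181. MAVS (gene5982, found by its KEGG name), the adaptor of DDX58 and IFIH1, had 308, 777 and 936 counts, a salivary level 2.24-fold that of the small intestine (1.96 to 2.57), whereas DDX58 was level between those libraries. By symbol, 1 of 4 adaptor models was 2-fold or more higher in the liver than in the small intestine (23.2% of all genes were), 2 were higher in the small intestine than in the salivary glands (18.9%), and 2 were higher in the liver than in the salivary glands (23.6%).

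Of the chaperones and carriers of the receptors, several were higher in the liver. HSP90B1 (gp96), which folds Toll-like receptors and is a general chaperone of the endoplasmic reticulum, had 2150, 1717 and 20444 counts, a liver level 5.62-fold that of the small intestine (5.37 to 5.88). LRRC59 had 1143, 1391 and 8990 counts and CNPY3, a partner of HSP90B1, had 200, 424 and 1178. The model with the symbol AP3B1 that moved the other way (gene24660) was AP3B2 by NR, with 190, 240 and 31 counts. Of the 8 models of this list, 4 were 2-fold or more higher in the liver than in the small intestine and 1 lower, against 23.2% and 22.9% of all genes.

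Most MyD88 branch models differed by under 2-fold. Of 19 MyD88 branch models compared, 3 were 2-fold or more higher and 3 lower in the liver than in the small intestine, against 23.2% and 22.9% of all genes, and the list's median log2 ratio was 0.20, beside 0.08 over all genes. Of the 6, 5 were relatives under a shared symbol. Matched by KEGG symbol, or by Swiss-Prot symbol for models without one (here and below), 1 of 14 models was higher and 0 lower. The 1 was CHUK, a kinase of the NF-kappa-B inhibitors. The models of highest FPKM were the ubiquitin-conjugating enzymes UBE2N (gene16686), at 20.1, 17.3 and 37.6 in the small intestine, salivary glands and liver, and UBE2Z (gene3451, symbol UBE2N), at 22.9, 21.5 and 20.9. TRAF5 (gene23008, symbol TRAF6) had 192, 25 and 40 counts, and LRRK1 (gene21280, symbol MAP3K7) had 464, 592 and 179. In the interferon branch, AZI2 was the 1 gene of 9 found by symbol, with 146, 205 and 591 counts for AZI2 itself (gene759) and 297, 299 and 99 for TBKBP1 (gene804). By KEGG symbol all 9 were found. Of 10 models, 5 were 2-fold or more higher in the liver than in the small intestine and 2 lower, against 23.2% and 22.9% of all genes. TRIM25 was among the 5 as both gene16049 and gene5988. TBK1 (gene997), the kinase that activates IRF3, had 153, 309 and 645 counts, and TRIM25 (gene5988), the ligase that activates DDX58, had 786, 734 and 4579.

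Among the transcription factors, 5 of 13 models were 2-fold or more higher in the liver than in the small intestine and 7 of 13 higher than in the salivary glands, with 0 lower in either case, against 23.2% and 23.6% of all genes higher in the liver and 22.9% and 22% lower. IRF7 (gene19429, symbol IRF5) had 169, 216 and 1360 counts, a liver level 4.75-fold that of the small intestine (4.05 to 5.61). IRF1, an interferon-inducible regulator, had 379, 77 and 1328 counts, 11.5-fold higher in the liver than in the salivary glands (9.10 to 14.6). The NF-kappa-B subunits RELA (gene8847) and RELB (gene3395) reached 57.5 FPKM, in the liver and the small intestine respectively. Of 12 inhibitor models by symbol, 2 were 2-fold or more higher and 0 lower in the liver than in the small intestine, against 23.2% and 22.9% of all genes. The 2 were the relatives NFKBIE and VCPIP1, and by KEGG symbol 0 of 10 models were higher and 1 lower (SIGIRR, gene13294, with 401, 428 and 223 counts). NFKBIA and NFKBIB (gene7428), which hold NF-kappa-B in the cytosol, were the most expressed, NFKBIE (gene18071) had 39, 67 and 158 counts, and TNFAIP3 (A20, gene10931), which ends NF-kappa-B signalling, had 482, 118 and 758.

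Over all pathway lists by symbol, 40 of 84 genes were found, as 93 models. Of 81 models compared between liver and small intestine, 48.1% were past 2-fold, beside 46.1% of all genes. The share was 26.3% of 80 between salivary glands and small intestine, beside 34.7% of all genes, and 54.1% of 85 between liver and salivary glands, beside 45.6%. The calls leaned to the liver, with 31 models higher and 8 lower than in the small intestine and 34 higher and 12 lower than in the salivary glands, beside 3794 and 3745 and 3834 and 3565 over all genes.

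**Figure D4:**
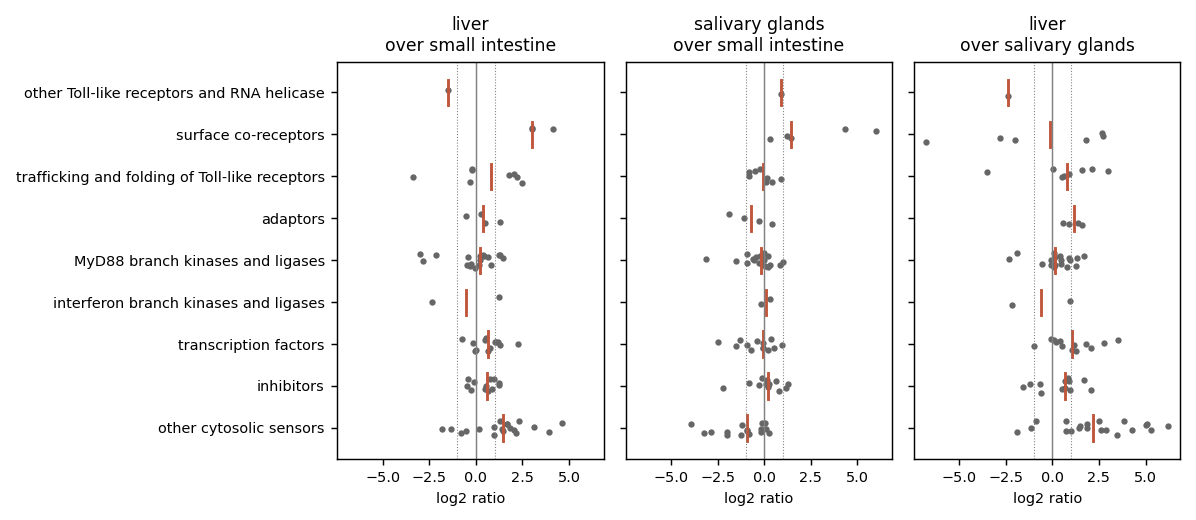
Log2 ratio of TMM-scaled counts between each pair of libraries for the models of 9 pathway lists, matched by symbol, 1 point per model, with a minimum of 10 counts on average over the pair. Bars are list medians and dotted lines mark 2-fold. The medians of the MyD88 branch models lay within 2-fold in all 3 pairs.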

How the data were processed

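Paired Illumina reads were aligned by the authors with TopHat2 without strand to the M. javanica genome, and Cufflinks added new genes. The deposited counts are unscaled whole numbers, and the counting tool is not given in the sources used here. The deposited FPKM values were estimated by the authors, who name RSEM, and are not simply count over length: relative to the library median, their ratio to it ran from 0.584 to 1.97 over members with 20 or more counts. The deposited scaled signal is close to the count times 1 factor per library, but not for every model. For TLR13 the log2 ratio of liver over salivary glands was 3.55 by TMM and 4.16 by the scaled signal. The median shift of that ratio between these scalings was 0.03. The authors annotated genes with BLASTX (e-value 1e-05) against 7 databases.

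Counts were scaled by TMM (edgeR 4.0.16, R 4.3.3). With 1 library per tissue no test was run, and the authors' DEGseq comparison was not repeated. Intervals are exact 95% Poisson (levels) or Clopper-Pearson (ratios) intervals. Compared genes had a mean of 10 or more counts over the pair, and a count of 0 was set at 3 counts per library. Ratios given as at least take the other count as exact, so they are not 95% limits. The calculation was tested on simulated Poisson counts, in which 200 genes with ample counts were changed 4-fold. In these data far more genes differed between tissues and several members had few counts, so that test does not cover either condition. Python 3.11.15, pandas 2.3.3, numpy 2.4.6, scipy 1.17.1 and matplotlib 3.10.9 were used.

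Members and lists were chosen with earlier results of these data known. The genes named are all members, every adaptor, co-receptor and further receptor of the lists, up to 2 genes of highest FPKM and the 1 of largest ratio in each pair per list, and the nearest pattern per member with 30 or more counts (given where no library had under 10). Lists were matched by Swiss-Prot symbol. Markers, and genes said to be found by KEGG name, were matched by KEGG symbol, or by Swiss-Prot symbol where a model had no KEGG symbol. Marker, MyD88 and interferon branch, inhibitor and cytosolic sensor genes named singly outside the naming rule above were chosen after their values were seen. Alternatives were total counts, upper quartile and DESeq2 1.42.0 scaling, FPKM ratios, other thresholds, and, chosen after the data were seen, the deposited scaled counts and the KEGG match.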

Additional observations from a re-analysis of the deposited data

How the results depend on the processing

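No paired analysis was possible because each tissue had 1 library, and no replicate could be left out. No ratio past 2-fold changed direction under any scaling tried. Of the ratios near 1, that of DDX58 for salivary glands over small intestine went from -0.07 (log2) to 0.39 with total counts, and those of TLR2 (total counts) and IFIH1 (FPKM) for liver over salivary glands crossed 1 by less than their counting error. Scaling by total counts moved the median log2 ratio of all genes by 0.24 for liver over small intestine, 0.46 for salivary glands over small intestine and -0.22 for liver over salivary glands, and the share of 2-fold calls that were higher in the salivary glands than in the small intestine went from 45.6% to 66.4%. DDX58 lay near the threshold: its log2 ratio of liver over small intestine was 0.98, and 1.22 with total counts and 1.26 with FPKM, both past 2-fold, while that of liver over salivary glands went from 1.04 to 0.83 with total counts and 0.97 with upper quartile scaling, both under 2-fold. With FPKM ratios the members 2-fold or more higher in the salivary glands than in the liver went from 2 to 1, as TLR3 went from -1.19 to -0.84 (log2 of liver over salivary glands). At 4-fold that count was 0, and over all genes 4134 (liver and small intestine), 2486 (salivary glands and small intestine) and 3940 (liver and salivary glands) were past the threshold, against 7539, 5424 and 7399 at 2-fold. Without the count minimum, 1 member was 2-fold higher in the small intestine than in the liver (0 with it), 5 in the salivary glands than in the small intestine (3 with it) and 2 the other way (1 with it). An FPKM above 5 was reached by 1, 2 and 3 members in the small intestine, salivary glands and liver, and 10 or more counts by 7 in the small intestine and 11 in the liver, against 4 and 7 with an FPKM above 1. Ratios of models under 10 counts are limited by depth.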

Other observations

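Models under the symbols of other cytosolic sensors differed widely between tissues. The symbols of 5 of the 17 genes in this list were found, as 22 models. Among these were relatives such as RANGAP1 (gene11267, symbol NLRP3), so the counts are not of nucleic acid sensors alone. Matched by KEGG symbol, or by Swiss-Prot symbol for models without one, 14 of 19 models were 2-fold or more higher in the liver than in the salivary glands. Of those 14, 5 had under 10 salivary counts. The 1 lower model (gene18836) had the symbol OAS1 and no KEGG symbol, and NR named it small G protein signaling modulator 1. This match thus still held relatives. Of 20 models compared by symbol between liver and salivary glands, 14 were 2-fold or more higher in the liver and 2 lower, against 23.6% and 22% of all genes, and 5 of the 14 had under 10 counts in the salivary glands and passed the minimum through the liver library. The OAS enzymes, interferon-induced enzymes that bind double-stranded RNA, led the list. OAS2 (gene22070) had 294, 146 and 4256 counts in the small intestine, salivary glands and liver, a liver level 8.55-fold that of the small intestine (7.60 to 9.66) and 19.4-fold that of the salivary glands (16.4 to 23.0). OAS1 models followed the same order, with 197, 55 and 906 counts for gene24788, 96, 27 and 588 for Manis_javanica_newGene_10768 and 27, 2 and 225 for Manis_javanica_newGene_9386, and near-identical copies can share reads. CIITA (gene16622, symbol NOD2), the regulator of MHC class II genes, had 2, 10 and 84 counts.

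Few reads fell on 3 models linked to the sensing of cytosolic DNA, which were singled out after their values were seen. The model of STING (gene16212, symbol TMEM173) had 2, 1 and 0 counts in the small intestine, salivary glands and liver, that of ZBP1 (gene3331) had none in any library and that of AIM2 (gene631) had 1, 3 and 4. The RNA-binding kinase EIF2AK2 (gene4521, PKR) had 352, 452 and 1561 counts and ADAR (gene585) had 618, 889 and 4423, with a liver level 4.23-fold that of the small intestine (3.89 to 4.61) for ADAR. The peptidoglycan sensors NOD1 (gene19504) and NOD2 (gene19375) had 142, 85 and 464 and 74, 98 and 245 counts, and NLRX1 (gene3297), a mitochondrial regulator of MAVS, had 899, 1097 and 890.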
